A study of Schizosaccharomyces pombe with 6 samples.

Results

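The genes described here belong to meiosis and sporulation in the fission yeast Schizosaccharomyces pombe and were read by 7 probe sets, which carry 8 gene names, on an array of 9133 probe sets in all. They are rec8, spo6, cuf2, mug62, mug124, mug131 and a single probe set shared by meu1 and meu2. They were chosen because at least 1 of the 3 comparison tables deposited by the authors names them, so their differences in those comparisons picked them and are given as a description. The tables name 81 S. pombe genes, read by 76 probe sets, so these 8 are a small share of the genes with a name. The study measured messenger RNA in 3 groups of cells: cells overexpressing Spc1K49R, cells overexpressing Spc1, and cells transformed with an empty vector, whose strain is labelled wild. Each group had 2 arrays, labelled as biological replicates, and nothing more is said of how the cultures were separated, so the error covers the spread between these arrays, which may be technical. Spc1, also called Sty1, is the stress-activated MAP kinase of fission yeast, and Spc1K49R is named for a lysine to arginine substitution in it. The promoter of the vector, the other alleles of the strains, the growth medium and the growth phase are not given in the sources used here.

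In fission yeast, haploid cells that run short of nitrogen mate, and the diploid zygote goes through meiosis and packs the products into spores. Cells in mitotic growth keep this programme off: the RNA-binding protein Mmi1 marks many meiotic transcripts, that of rec8 among them, for destruction, and the kinase Pat1 holds back the regulator Mei2. Spc1 and the transcription factor Atf1 are required for the starvation response that opens the programme through Ste11. Names beginning with mug (meiotically upregulated gene) or meu were given to genes whose transcripts rise in meiosis, and many of them have no other known role.

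Every value below is a deposited log2 signal from which the probe set's own median across the 6 arrays had been taken away. Differences were tested with limma, which fits a linear model to each probe set and shares information on the spread between them. The threshold was 0.05 after Benjamini-Hochberg adjustment over 8960 probe sets. These include probe sets for the budding yeast Saccharomyces cerevisiae, which the array also carries. Shares, medians and gaps over all tested probe sets therefore mix both species. Deposited values of this kind show how arrays differ and give no absolute level, so whether a gene was silent or transcribed cannot be read from them. Whether the cells were in mitotic growth could therefore not be checked by level. The arrays read RNA from whole cultures, so fewer cells with a transcript and less of it per cell cannot be told apart. Of 8 marker genes of sporulating cells (isp3, isp6, spo5, mde10, meu14, mei4, bgs2 and agn2) none had a name in the deposited tables. Of 18 marker genes of mating cells 7 had a name, read by 8 probe sets. Their median was 0.34 and 0.11 on the Spc1K49R arrays, -0.12 and 0.07 on the Spc1 arrays, and -0.26 and -0.22 on the empty-vector arrays. These marker genes came from the same deposited tables, and their part in the results below was not tested.

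A pair of arrays needs to be known before the results. The sty1 probe set, which reads the overexpressed gene, had 1.20 on Spc1K49R replicate 1 but -1.37 on the array labelled Spc1K49R replicate 2, against 1.04 and 1.49 on the Spc1 arrays and -1.07 and -1.04 on the empty-vector arrays. The sty1 level of that array is at odds with its label, and it enters every Spc1K49R mean. Spc1 replicate 1 had a wide spread, with an SD over the tested probe sets of 0.82, where the other 5 had 0.11 to 0.31. The mean 5' minus 3' difference of 6 control genes, a measure of RNA integrity, was -1.53 on that array, -0.56 on empty vector replicate 1 and between -0.10 and 0.40 on the other 4. Of the 7 meiotic probe sets, 6 lay farthest from 0 on Spc1 replicate 1 and 1, mug131, on empty vector replicate 1.

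**Figure D1:**
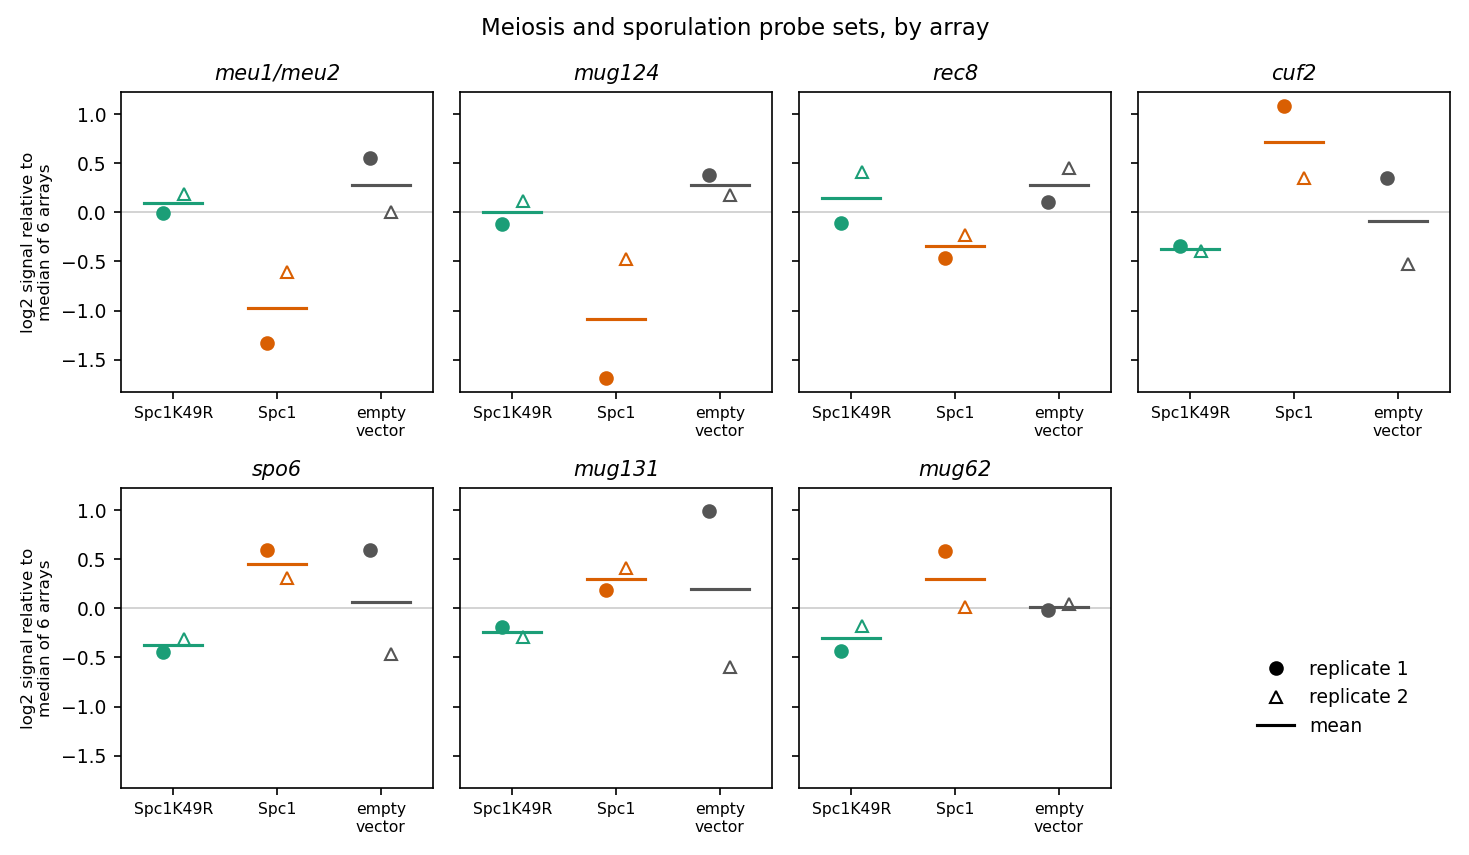
Log2 signal relative to the 6-array median (vertical axis) for each of the 7 probe sets, with Spc1K49R, Spc1 and empty-vector arrays from left to right; circles are replicate 1, open triangles replicate 2 and bars the mean of the 2 arrays. The Spc1 arrays lie lowest for meu1/meu2, mug124 and rec8, and the 2 empty-vector arrays lie far apart for cuf2, spo6 and mug131.

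The probe sets fell into 2 patterns, which largely restate the deposited comparisons that chose them. Spc1 against empty vector listed meu1/meu2, mug124 and rec8, and Spc1 against Spc1K49R listed cuf2, spo6, mug131 and also meu1/meu2. The patterns are therefore a description. For meu1 and meu2, mug124 and rec8 both Spc1 arrays were below all 4 other arrays. For cuf2, spo6, mug131 and mug62 both Spc1K49R arrays were below both Spc1 arrays. With cuf2, spo6 and mug131, empty vector replicate 2 was below both Spc1K49R arrays and empty vector replicate 1 above both. With mug62 both empty-vector arrays were above both Spc1K49R arrays, and Spc1 replicate 2 lay between the empty-vector arrays. No direction was shared by all 7 when Spc1 was set against either of the other groups. All 7 means were lower with Spc1K49R than with empty vector, by 0.13 to 0.44 log2 units. Without empty vector replicate 1 the sign turned for 4 of them (cuf2, spo6, mug131 and meu1/meu2), and for rec8 it turned without empty vector replicate 2 or without Spc1K49R replicate 1. In that comparison 2 of the 7 (mug124 and mug62) had groups that did not overlap, and both were below. Over all tested probe sets 11.7% were below without overlap and 12% above. The count rests on 2 probe sets, and mug62 was chosen on this comparison, so nothing is read from it.

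Of the members that were low in Spc1, the meu1 and meu2 probe set had the second largest difference from empty vector. These are transcripts named for their rise in meiosis, called sequence orphans in the deposited tables, and the identifier behind the probe set is listed as a synonym of meu1 in the gene table of assembly ASM294v3, which holds no separate meu2. The values were -0.00397 and 0.19 with Spc1K49R, -1.33 and -0.61 with Spc1, and 0.55 and 0.00397 with empty vector. Both Spc1 arrays were lower than the rest, with replicate 1 the lower of them. The mean was -0.97 ± 0.51 with Spc1 and 0.28 ± 0.39 with empty vector (SD, n = 2 each), a difference of -1.25 (SE 0.32), or 2.38-fold lower. With Spc1K49R, at 0.09 ± 0.14 (SD, n = 2), it was 1.06 (SE 0.32) above Spc1, or 2.09-fold higher. Both comparisons chose this probe set and both use the same Spc1 arrays, so they are 2 views of 1 low group. Without Spc1 replicate 1 the values were -0.89 and 0.70. Spc1K49R and empty vector overlapped, and their difference of -0.19 (SE 0.32, 95% interval -1.01 to 0.63) came with a limma adjusted p that rounded to 1.

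The largest difference between Spc1 and empty vector was that of mug124, a gene of unknown role whose deposited annotation gives a membrane protein. It had -0.12 and 0.12 with Spc1K49R, -1.69 and -0.48 with Spc1, and 0.38 and 0.17 with empty vector. The 3 groups did not overlap, with empty vector highest and Spc1 lowest, and the 2 Spc1 arrays differed by 1.21. The Spc1 mean of -1.08 ± 0.86 was -1.36 (SE 0.41) from the empty-vector mean of 0.28 ± 0.15 (SD, n = 2 each), or 2.57-fold lower. This difference, which chose the probe set, was -0.76 without Spc1 replicate 1. Spc1K49R was 1.08 (SE 0.41, 95% interval 0.02 to 2.15) above Spc1, with a limma adjusted p of 0.717, and 0.48 above it without Spc1 replicate 1. That comparison did not choose mug124 but shares the Spc1 arrays that did. From empty vector Spc1K49R differed by -0.28 (SE 0.41).

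Rec8 is the meiotic subunit of cohesin, the ring complex that holds sister chromatids together, and takes the place of the mitotic subunit Rad21 on meiotic chromosomes. The rec8 probe set had -0.11 and 0.41 with Spc1K49R, -0.46 and -0.23 with Spc1, and 0.11 and 0.46 with empty vector. Spc1 lay below both other groups, whereas the Spc1K49R and empty-vector arrays overlapped. The Spc1 mean of -0.34 ± 0.17 was -0.63 (SE 0.25) from that of the empty vector, 0.28 ± 0.24 (SD, n = 2 each), or 1.54-fold lower. It changed least of the 3 low probe sets when Spc1 replicate 1 was left out, to -0.51. In the authors' deposited table its unadjusted p was 0.0476, the nearest of all members to their limit of 0.05, and no value beyond that limit is in the table. Spc1K49R was 0.49 (SE 0.25, 95% interval -0.14 to 1.13) above Spc1, with a limma adjusted p of 0.717. With Spc1 replicate 1 and also the array labelled Spc1K49R replicate 2 left out, it was 0.12.

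Of the members whose mean was lowest with Spc1K49R, cuf2 had the largest difference from Spc1. Cuf2 is a meiotic transcription factor, related to the copper regulator Cuf1, that acts on genes of the middle phase of meiosis. Its values were -0.35 and -0.39 with Spc1K49R, 1.09 and 0.35 with Spc1, and 0.35 and -0.53 with empty vector. The Spc1K49R arrays were close to each other, and the empty-vector arrays ran from below them to just under the lower Spc1 array. The Spc1K49R mean of -0.37 ± 0.03 was -1.09 (SE 0.38) from the Spc1 mean of 0.72 ± 0.52 (SD, n = 2 each), or 2.13-fold lower, and -0.72 without Spc1 replicate 1. Spc1 itself was 0.81 (SE 0.38, 95% interval -0.17 to 1.79) above the empty-vector mean of -0.09 ± 0.62 (SD, n = 2), with a limma adjusted p of 0.79. Leaving out an empty-vector array moved that difference between 0.37 and 1.25.

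Spo6 is the regulatory subunit of the Spo4 kinase, a pair related to the replication kinase Cdc7 and its partner Dbf4 and needed for the second meiotic division and for spores. The spo6 probe set had -0.44 and -0.31 with Spc1K49R, 0.60 and 0.31 with Spc1, and 0.59 and -0.46 with empty vector. The 2 empty-vector arrays were the second highest and the lowest of the 6, and differed by 1.06. The Spc1K49R mean of -0.38 ± 0.09 was -0.83 (SE 0.37) from the Spc1 mean of 0.45 ± 0.20 (SD, n = 2 each), or 1.78-fold lower, and -0.69 without Spc1 replicate 1. Against empty vector neither overexpressing group stood apart. Spc1 differed by 0.39 (SE 0.37) with a limma adjusted p of 0.79, and Spc1K49R by -0.44 (SE 0.37) with one that rounded to 1.

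The gene mug131, annotated only as a hypothetical protein found in the Golgi, shared that pattern and had the widest controls. It had -0.19 and -0.29 with Spc1K49R, 0.19 and 0.41 with Spc1, and 0.99 and -0.60 with empty vector. The empty-vector arrays were the highest and the lowest of all 6, a gap of 1.59. The Spc1K49R mean of -0.24 ± 0.07 was -0.54 (SE 0.52) from the Spc1 mean of 0.30 ± 0.16 (SD, n = 2 each). All 3 groups feed 1 standard error, which therefore includes that gap. In the authors' deposited table, which runs the other way, Spc1 was 1.52-fold higher with an unadjusted p of 0.0201. Against empty vector the difference was 0.10 (SE 0.52) for Spc1 and -0.44 (SE 0.52) for Spc1K49R, and the sign of either one depended on which empty-vector array was kept.

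A predicted AMP-binding enzyme is encoded by mug62, the only member listed in the deposited comparison of Spc1K49R with empty vector. It had -0.43 and -0.18 with Spc1K49R, 0.59 and 0.01 with Spc1, and -0.01 and 0.04 with empty vector. Both Spc1K49R arrays were below the other 4, and Spc1 replicate 2 lay between the empty-vector arrays. The Spc1K49R mean of -0.30 ± 0.18 was -0.32 (SE 0.24) from the empty-vector mean of 0.01 ± 0.04 (SD, n = 2 each), or 1.25-fold lower. Left to Spc1K49R replicate 1 it was -0.44, and left to the array labelled replicate 2 it was -0.19. Spc1K49R was -0.60 (SE 0.24, 95% interval -1.21 to 0.0036) from Spc1 with a limma adjusted p of 0.717, and -0.32 without Spc1 replicate 1. Spc1 was 0.28 above empty vector (SE 0.24, limma adjusted p 0.79), and -0.0022 from it without Spc1 replicate 1.

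**Figure D2:**
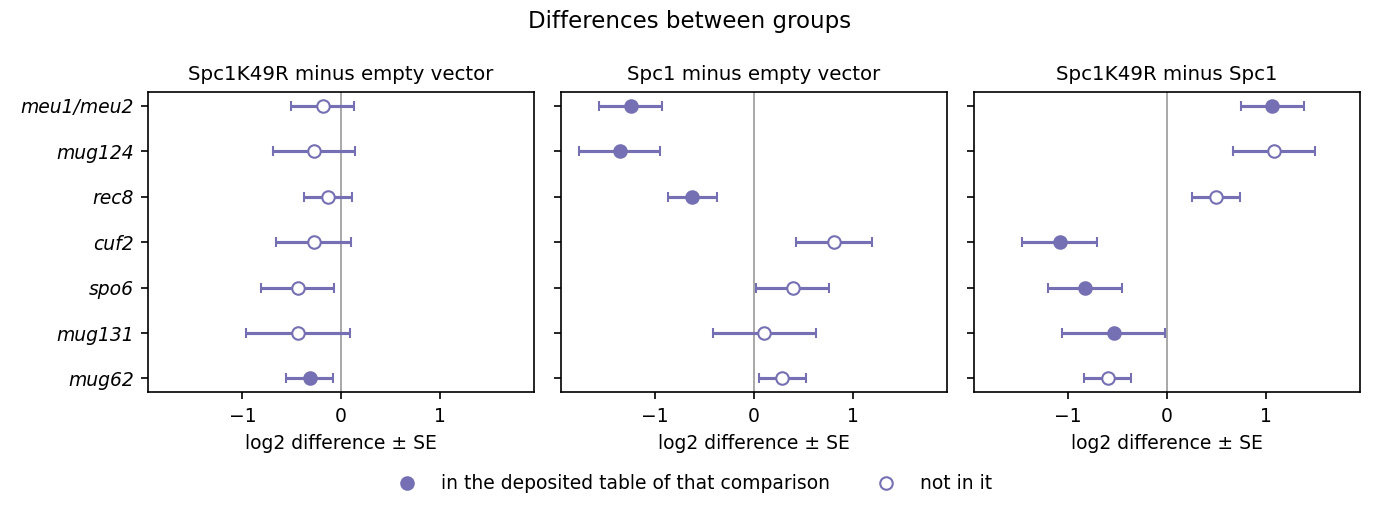
Log2 differences with their standard errors (horizontal axis) for the 7 probe sets in the 3 comparisons; filled points are probe sets that the deposited table of that comparison lists, open points those it does not. With Spc1K49R against empty vector all 7 points lie between -0.44 and -0.13, whereas both comparisons with Spc1 hold points on both sides of 0.

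None of the 7 passed in any comparison. With limma, fitted over 8960 probe sets, 0 of 7 members had an adjusted p under 0.05 in each of the 3 comparisons, and the share over all tested probe sets was 0% in each. Without Spc1 replicate 2, when Spc1 replicate 1 stands alone, 3 members passed between Spc1 and empty vector and 4 between Spc1K49R and Spc1, as did 33.1% and 36.1% of all tested probe sets. For the comparisons that did not choose them, adjusted p-values were 0.717 for 3 members between Spc1K49R and Spc1, 0.79 to 0.958 for 4 members between Spc1 and empty vector, and rounded to 1 for 6 members between Spc1K49R and empty vector. At an unadjusted p under 0.05 there were 3 of 7 members for Spc1K49R against Spc1 (1.02% of all tested), 2 of 7 for Spc1 against empty vector (1.21%) and 0 of 7 for Spc1K49R against empty vector (0.0893%). Between Spc1K49R and Spc1 the arrays of 3 members lay wholly above (21.6% of all tested) and of 4 wholly below (14.5%). Between Spc1 and empty vector 1 member lay above (10.5%) and 3 below (14.4%). The deposited tables of these comparisons chose 4 and 3 of the members, so nothing is read from these shares. The median difference of the 7 was -0.54 for Spc1K49R against Spc1, 0.10 for Spc1 against empty vector and -0.28 for Spc1K49R against empty vector. Over all tested probe sets it was 0.05, -0.05 and 0.0025 in the same order. Members were chosen on these differences, and in both comparisons with Spc1 they went both ways, so nothing is read from the medians.

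By the median gap, replicates of the members lay farther apart than those of all tested probe sets. Members were chosen for differences on these same arrays, and the tested probe sets include those of S. cerevisiae. The wider gaps are therefore not read as a trait of these genes. The 2 Spc1K49R arrays differed by a median of 0.19 over the 7 members, against 0.09 over all tested probe sets. The gap was 0.57 against 0.42 for the Spc1 arrays and 0.55 against 0.17 for the empty-vector arrays. Within the members it ran from 0.04 (cuf2) to 0.52 (rec8) with Spc1K49R, from 0.22 (mug131) to 1.21 (mug124) with Spc1, and from 0.05 (mug62) to 1.59 (mug131) with empty vector. The deposited values give no level, so whether these are dim probe sets was not tested.

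**Figure D3:**
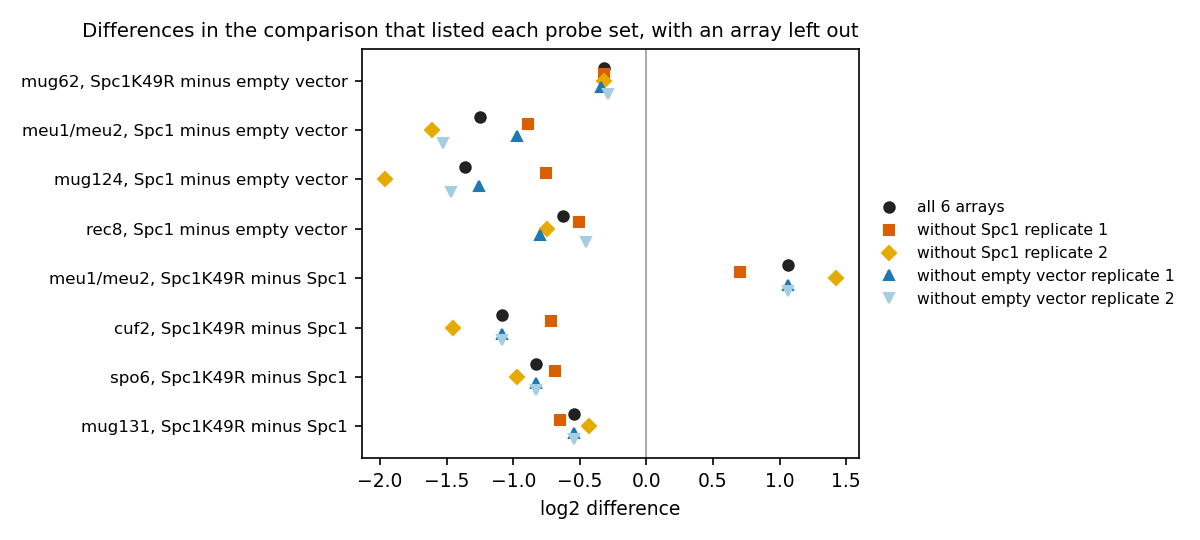
Log2 difference (horizontal axis) in each comparison whose deposited table lists the probe set, with all 6 arrays and with a Spc1 or an empty-vector array left out. No point crosses 0, and the differences of meu1/meu2, mug124 and cuf2 are nearer to 0 without Spc1 replicate 1, at -0.89 and 0.70, -0.76 and -0.72.

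Leaving out the array that lacked raised sty1, Spc1K49R replicate 2, could turn no sign between Spc1K49R and Spc1. The arrays of these 2 groups did not overlap for any of the 7 members, and this comparison chose 4 of them. Only the sizes of the differences are therefore given. Without Spc1K49R replicate 2 the difference was 0.97 for meu1/meu2, 0.97 for mug124 and 0.23 for rec8. It was -1.07 for cuf2, -0.90 for spo6, -0.49 for mug131 and -0.73 for mug62.

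In the deposited comparisons the signs with Spc1 were divided. The authors' deposited table of Spc1 against empty vector lists mug124 as 2.42-fold, the meu1 and meu2 probe set as 2.20-fold and rec8 as 1.55-fold lower. The authors' deposited table of Spc1 against Spc1K49R lists cuf2 as 2.08-fold and spo6 as 1.77-fold higher with Spc1, and the meu1 and meu2 probe set as 2.17-fold lower. The authors' deposited table of Spc1K49R against empty vector lists mug62 as 1.22-fold lower. The tables call their groups mutant B (here Spc1), mutant C (here Spc1K49R) and wild type (here empty vector), an assignment that rests on fold changes, which correlated at 0.970 to 0.995 across probe sets with the differences computed here.

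Beyond the members, 3 further named probe sets had a mug or meu name or stood in the lists of meiotic genes. These were mei2, whose RNA-binding product starts meiosis, mug20, which encodes a component of the linear elements of meiotic chromosomes, and meu15, called a sequence orphan. Of 19 gene names listed for meiotic entry and RNA elimination, 2 were among the named probe sets (mei2 and cuf2). Of 29 for the chromosome axis and recombination there were 2 (rec8 and mug20). Of 16 for the meiotic divisions there were 2 (spo6 and cuf2), and of 32 for the forespore membrane and spore wall 0. Synonyms were not merged, so these are counts of names. No named gene of these lists passed with limma in either direction in any comparison with all 6 arrays. Without Spc1 replicate 2, when Spc1 replicate 1 stands alone, Spc1 minus empty vector was -0.95 for mug20, and Spc1K49R minus Spc1 was 0.79. For meu15, which is in none of the lists, Spc1 minus empty vector was then -0.97. The comparison of Spc1 with empty vector chose both probe sets, so these values are a description.

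The 3 further genes did not share a direction. For mei2 the values were 0.15 and 0.12 with Spc1K49R, -0.12 and 0.19 with Spc1, and -0.58 and -0.19 with empty vector. Both overexpressing groups lay above the empty vector, Spc1K49R by 0.52 (SE 0.20), the difference that listed it, and Spc1 by 0.42 (SE 0.20, limma adjusted p 0.79). For mug20 they were -0.04 and 0.17 with Spc1K49R, -0.73 and -0.28 with Spc1, and 0.41 and 0.04 with empty vector. For meu15 the Spc1K49R arrays had -0.00024 and 0.00024, the Spc1 arrays -0.47 and -0.0046, and the empty-vector arrays 0.70 and 0.29. Both were listed as lower with Spc1 than with empty vector, by -0.73 (SE 0.23) in each, and by -0.51 and -0.50 without Spc1 replicate 1.

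**Figure D4:**
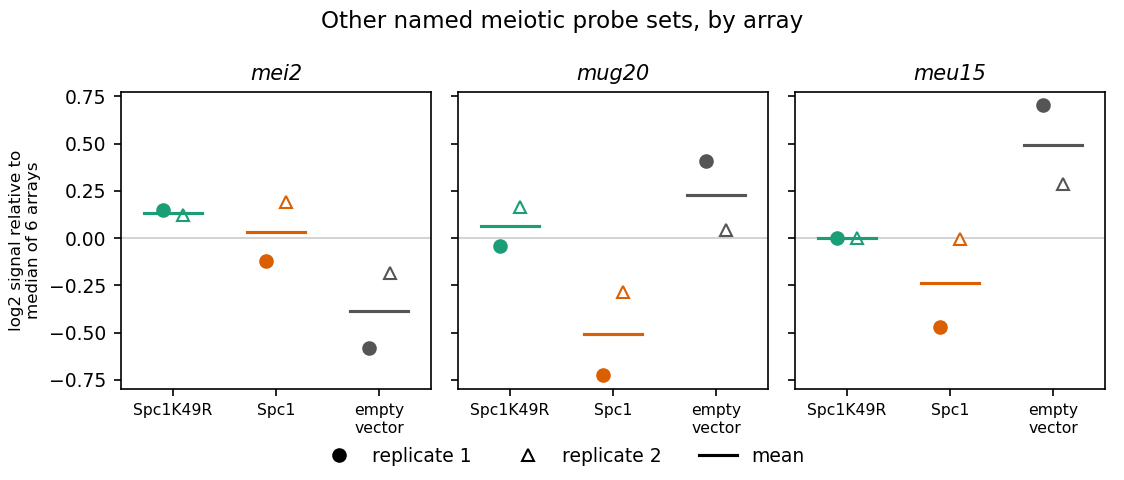
Log2 signal relative to the 6-array median (vertical axis) for mei2, mug20 and meu15, with Spc1K49R, Spc1 and empty-vector arrays from left to right; circles are replicate 1, open triangles replicate 2 and bars the mean. The empty-vector arrays lie lowest for mei2 and highest for meu15, and Spc1 replicate 1 lies lowest for mug20 and meu15.

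The named S. pombe probe sets most like each member were found by Pearson's r over the 6 arrays among the 69 that are not members. All 69 were listed in a deposited table for a difference on these same arrays, as the members were. That choice favours a high r, so the values are a description. Each r over the 6 arrays includes Spc1 replicate 1, and r without it is given second. The pattern of meu1 and meu2 was most like that of mug20 (r 0.99, then 0.98) and of SPAC27D7.09c (0.97, then 0.91). That of mug124 was most like hem14, which encodes an enzyme of heme synthesis (0.98, then 0.92), and sap49, which encodes a splicing factor (0.98, then 0.96). For rec8 the nearest were SPCC162.01c, now snp27 (0.87, then 0.75), and hem14 (0.86, then 0.82). Both spo6 and mug131 were nearest to SPBPB2B2.08 (0.97, then 0.99 for spo6, and 0.93, then 0.97 for mug131) and next to SPAC13G6.13. For cuf2 the nearest were SPCC757.02c (0.96, then 0.96) and SPAC3H1.02c, now sdd3 (0.93, then 0.91), and for mug62 SPAC11D3.10 (0.92, then 0.64) and the probe set of SPBPB10D8.04c, SPBPB10D8.05c, SPBPB10D8.06c and SPBPB10D8.07c (0.74, then 0.92).

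In the gene table of assembly ASM294v3, 4 of the members overlap a protein-coding neighbour: spo6 overlaps lam2, cuf2 overlaps SPCC584.03c, mug62 overlaps alp41 and mug131 overlaps SPBC1861.05. Both rec8 and mug124 overlap annotated long non-coding RNAs, 1 for rec8 and 2 for mug124, and meu1 overlaps no other entry. The gene on one side of mug124 is pat1, the kinase that holds back meiosis. The positions of the probes were not used here, so which of the overlapping transcripts a probe set reads was not tested.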

How the data were processed

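Total RNA was extracted with a yeast kit and biotin-labelled cRNA made by the array maker's protocol, per the labels. The authors deposited a table of log2 values, which they had normalized between arrays, and the sources used here do not give the method. The median over the 6 arrays was within 1e-05 of 0 for all 9133 probe sets, so each had been centred. The authors also deposited 3 comparison tables with fold changes (a ratio of group means), their log2 and unadjusted p-values. A filter on raw signal (10th to 100th percentile) and a moderated test at 0.05 without correction were used there, per the file headers. Their 6 columns of group means were not used. The small number of arrays limits the precision.

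Gene names came from these tables, and 75 of the 76 S. pombe probe sets were found in the ASM294v3 gene table, which gave current symbols and neighbours and nothing else. Members and lists were chosen with earlier results of these data known. All members, all other probe sets of the meiotic lists, sty1 and the 2 most similar probe sets per member were named. Differences were tested two-sided with lmFit and eBayes of limma 3.58.1 (R 4.3.3), in 1 model of the 6 arrays that has 1 mean for each group and leaves 3 residual degrees of freedom, with Benjamini-Hochberg adjustment over 8960 probe sets after 173 controls were set aside. Simulated data with known changes served to check the fitting code. They gave every array the same spread, unlike the arrays here, so they do not test the model under unequal spread. With 2 arrays against 2 an exact two-sided permutation test cannot go below 0.333, so none was run. Alternatives were array centring, the arrays entering the fit, a replicate block, robust variances and arrays left out. A motif search of promoters that had been planned was not run.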

Additional observations from a re-analysis of the deposited data

Results flagged for a closer look

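For cuf2 both Spc1K49R arrays lay below the mean of the empty vector and both Spc1 arrays above it, and Spc1K49R differed from Spc1 by -1.09. The same held for spo6, with a difference of -0.83. These opposite directions were not tested, because the comparison of Spc1K49R with Spc1 chose both probe sets, and the 2 empty-vector arrays differed by 0.87 for cuf2 and by 1.06 for spo6. Outside the tested probe sets, 39 probe sets for poly-A control transcripts, which are added to RNA during preparation, were high in both Spc1 arrays, where their medians were 5.23 and 1.34, against 0.15 and -1.13 in the empty-vector arrays. Their part in the values of the meiotic genes was not tested.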

How the results depend on the processing

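The number of probe sets with a limma adjusted p under 0.05 was 0 in all 3 comparisons, and leaving out 1 array gave 0 to 2968 for Spc1 against empty vector, 0 to 3234 for Spc1K49R against Spc1 and 0 in every case for Spc1K49R against empty vector. The high counts came without Spc1 replicate 2, where Spc1 replicate 1 stands alone and is assumed to vary like the other groups. Then meu1/meu2, mug124 and mug62 passed against empty vector, and these and cuf2 passed between Spc1K49R and Spc1, where 33.1% and 36.1% of all tested probe sets passed. Under the other 10 alternatives no tested probe set passed in any comparison, members included.

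Unadjusted p-values were under 0.05 for 108 probe sets between Spc1 and empty vector, 8 between Spc1K49R and empty vector and 91 between Spc1K49R and Spc1. In the same order the counts were 17, 92 and 33 with only the 4 arrays compared, 33, 35 and 21 without Spc1 replicate 1 and Spc1K49R replicate 2, and 17 to 4066, 0 to 137 and 3 to 4262 with 1 array left out. With the replicate number as a block they were 103, 3 and 151, and no adjusted p passed. Replicate 1 deviations correlated at 0.47 between empty vector and Spc1, 0.07 between empty vector and Spc1K49R and 0.10 between Spc1 and Spc1K49R. The labels give a replicate number and no pairing. Whether the replicate 1 arrays of empty vector and Spc1 share a preparation was not tested.

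Signs turned in 11 of 231 alternative values of the members, none of them in a comparison that chose the member. In those comparisons the groups did not overlap, so leaving out arrays could not turn a sign there. With 1 array left out, Spc1K49R minus empty vector ran from -0.72 to 0.16 for cuf2, -0.97 to 0.088 for spo6, -1.23 to 0.36 for mug131, -0.46 to 0.089 for meu1/meu2, -0.39 to 0.13 for rec8 and -0.35 to 0.022 for mug20. Only for rec8 among these did the positive values come without empty vector replicate 2 (0.04) or without Spc1K49R replicate 1, and for the other 5 they came without empty vector replicate 1. Spc1 minus empty vector ran from -0.14 to 0.92 for spo6, -0.69 to 0.90 for mug131 and -0.0022 to 0.57 for mug62, and Spc1K49R minus Spc1 from -0.055 to 0.26 for mei2. Without Spc1 replicate 1 and Spc1K49R replicate 2 together, mug62 was at -0.0022 and mei2 at -0.042 in those comparisons. The causes were not tested.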

Other observations

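The array also carries probe sets for the budding yeast Saccharomyces cerevisiae, and 91 of them were named and had values here. With r of at least 0.9 over the 6 arrays taken as alike, a limit chosen after the data were seen, meu1/meu2 had 18 alike of 69 named S. pombe probe sets (26.1%) and 1 of 91 S. cerevisiae ones (1.10%). For mug124 the counts were 16 (23.2%) and 1 (1.10%). For mug62 they were 1 (1.45%) and 9 (9.89%), for cuf2 2 and 3, for spo6 3 and 3, for mug131 2 and 0, and for rec8 0 and 0. The 2 species were not listed evenly across comparisons. Spc1 against empty vector listed 30 tested probe sets, 23 of them S. pombe. Spc1K49R against empty vector listed 124, of which 35 were S. pombe. The shares therefore depend on which comparison listed each probe set, and nothing about species is read from them. Among these named probe sets, the one most like cuf2 was that of the S. cerevisiae gene MSY1, which encodes a mitochondrial tyrosyl-tRNA synthetase (r 0.998). A budding yeast gene of meiosis, SPO23, was also listed in the authors' deposited table of Spc1 against Spc1K49R. Its probe set had -0.20 and -0.22 with Spc1K49R, 0.30 and 0.18 with Spc1, and -0.18 and 0.24 with empty vector. All of these probe sets were chosen by the study on the same arrays, and whether S. cerevisiae probe sets read an S. pombe transcript was not tested.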
